A study of Mus musculus with 4 samples.

Results

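Mature oligodendrocytes with a high level of Ptgds were examined among fluorescent cells sorted from the cortex and hippocampus of juvenile mice. They were chosen by measured values: a cell had 200 to 6000 detected genes, under 30% of its unique molecular identifiers (UMIs, which count captured transcripts) on mitochondrial genes, at least 1 UMI of Mog, at least 20 UMIs of Ptgds, no UMI of Klk6, fewer than 2 UMIs of Enpp6 and at most 1 UMI of Gad1 and Gad2 together. This rule found 428 Ptgds cells among 26987 cell barcodes, of which 26201 were within the limits on genes and mitochondrial UMIs. The 5552 cells that met every other part of the rule but had fewer than 20 UMIs of Ptgds are called Ptgds-low cells, and these and the Ptgds cells together are the 5980 Mog cells.

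Oligodendrocytes wrap axons in myelin, a stack of membrane that speeds conduction, and support the axons they wrap with metabolites. They mature from dividing precursors through a newly formed stage, in which Enpp6 is expressed, to myelinating and then mature states in which Mog, the last of the major myelin proteins to appear, is present. Ptgds encodes the lipocalin-type prostaglandin D2 synthase, which converts prostaglandin H2 to prostaglandin D2 and also carries small lipophilic molecules, and it is one of the genes by which mature oligodendrocyte states are told apart, another being the protease gene Klk6.

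Cells were dissociated at postnatal days 18 to 20 from mice that carried Nkx2-1-Cre and the Ai14 reporter, so TdTomato marked cells whose ancestors had expressed Nkx2-1, chiefly those of the medial ganglionic eminence. WT mice were Grin1 wt/wt and Grin1-null mice Grin1 fl/fl, which lose the obligatory subunit of the NMDA receptor in cells with a history of Cre. Mice of both sexes were used over the study and several mice of a genotype were processed at a time, so a library is not taken to stand for a single animal, and the sex of the mice behind each library is not given. There were 3 WT libraries and 2 Grin1-null libraries from each region, 10 in all, replicate 1 prepared with version 2 of the 10x Genomics chemistry and the others with version 3. Barcode suffixes told the libraries apart, and each suffix was matched to a replicate through the cell numbers in the methods.

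WT cortex replicates 1, 2 and 3 had 9306756, 14212183 and 28057207 UMIs in total, and the same replicates of WT hippocampus 10555408, 8782181 and 20639002. They were 1488601 and 25688337 in Grin1-null cortex replicates 1 and 2, and 3856745 and 47338167 in Grin1-null hippocampus. Total UMIs thus differed widely between libraries. The lowest total, that of Grin1-null cortex replicate 1, came from 181 barcodes with a median of 6641 UMIs, and the lowest median was 1479 UMIs per barcode in WT hippocampus replicate 2. Of the barcode sequences, 95 occurred in more than 1 library (190 cells), and 5 of the 428 Ptgds cells carried such a sequence. The largest overlap was 12 barcodes, between WT cortex replicate 2 and WT hippocampus replicate 2, or 0.312% of the smaller library. The limits on genes and mitochondrial UMIs kept 2755 of 3079 barcodes of Grin1-null cortex and 4456 of 4840 of Grin1-null hippocampus. In WT they kept 9037 of 9088 in cortex and 9953 of 9980 in hippocampus. The part of this unequal loss in the comparisons of genotypes was not tested.

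Grin1 was read first in interneurons (at least 5 UMIs of Gad1 and Gad2 together and none of Mog), the cells in which it is abundant. Its summed level was 144, 236 and 211 CPM (UMIs of the gene per 1000000 UMIs of the same cells) in WT cortex replicates 1, 2 and 3, with 122, 164 and 140.4 CPM for WT hippocampus. It was 38.6 and 26.8 CPM in Grin1-null cortex replicates 1 and 2, and 26.8 and 19.1 CPM in those of hippocampus, so every library labelled Grin1-null lay below every WT library. The Ptgds cells themselves held 2 UMIs of Grin1 in all, 0.648 CPM with a 95% Poisson interval of 0.0785 to 2.34 CPM.

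The markers named for these cells were all present in them. Car2, encoding carbonic anhydrase 2, which interconverts carbon dioxide and bicarbonate, had a UMI in 426 of the 428 Ptgds cells (99.5%), and Trf, encoding the iron carrier transferrin, in 425 (99.3%). Mal, encoding a proteolipid of compact myelin, had a UMI in 427 (99.8%), and Aspa, encoding the enzyme that frees acetate from N-acetylaspartate, in 396 (92.5%). Car2, Trf, Mal and Aspa were all present in 394 cells (92.1%). Mbp, which encodes myelin basic protein, was present in every Ptgds cell with a median of 76.5 UMIs. These genes thus place nearly all of them among oligodendrocytes. They do not set Ptgds cells apart from other oligodendrocytes, since Ptgds-low and Klk6 cells carried them too, as compared below. In interneurons, which should lack these genes, Car2 was at 15.1 to 51.7 CPM over the 10 libraries and Trf at 0 to 12.1 CPM, against 2302 and 2667 CPM in the Ptgds cells.

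One Ptgds cell stood apart from the rest. This cell, from Grin1-null cortex replicate 2, had 150 UMIs of Ptgds but only 1 of Mog and 1 of Mbp, no UMI of Car2, Mal or Aspa, and 53 UMIs over all 7 genes of a list of leptomeningeal fibroblast markers. Ptgds is also known to be abundant in leptomeningeal cells. The other 6 Ptgds cells with fewer than 5 UMIs of Mog had 2 to 50 UMIs of Mbp and none of the fibroblast genes. In all, 3 of the 428 cells had a UMI of any fibroblast marker.

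The values used by the rule describe the choice and support nothing further. Ptgds ranged from 20 to 298 UMIs in the Ptgds cells with a median of 49 (quartiles 29 and 81), and Mog from 1 to 174 with a median of 38. Enpp6 was at 0 in 356 of them and at 1 UMI in 72, and Gad1 and Gad2 together were at 0 in 365 and at 1 UMI in 63. A further 40 cells with at least 20 UMIs of Ptgds had Klk6, and 44 had at least 2 UMIs of Enpp6, and these fell outside the rule. Only 13 of the 556 kept cells with at least 20 UMIs of Ptgds lacked Mog.

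Ptgds formed a continuum in Mog cells, with no gap at the threshold. It was at 0 in 3402 of the 5980 Mog cells, at 1 to 4 UMIs in 1455, at 5 to 9 in 422, at 10 to 14 in 164 and at 15 to 19 in 109. Above the threshold, 65 cells had 20 to 24 UMIs, 114 had 25 to 39, 139 had 40 to 79, 91 had at least 80 but fewer than 160, and 19 had 160 or more. Just outside it lay 17, 20 and 20 cells with 17, 18 and 19 UMIs, and just inside it 15, 12 and 10 cells with 20, 21 and 22 UMIs. The Ptgds cells are therefore the upper end of a range and not a class with an edge. Over all libraries their median depth was 6968 UMIs against 3818 in Ptgds-low cells, but within the libraries that gave most of them it was not clearly higher: 9114 against 7694 in Grin1-null cortex replicate 2, 7176 against 8274 and 7740 against 8337 in Grin1-null hippocampus replicates 1 and 2, and 4766 against 4626 in WT hippocampus replicate 1. Of the libraries with fewer than 10 Ptgds cells, WT cortex replicate 2 had medians of 3587 against 2061, WT hippocampus replicates 2 and 3 of 2311 against 1524 and 11036.5 against 6900, WT cortex replicate 3 of 7806 (1 cell) against 5523 and WT cortex replicate 1 of 5616 against 5963. The median share of mitochondrial UMIs was 2.04% in Ptgds cells and 2.01% in Ptgds-low cells.

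The Ptgds cells came mainly from the hippocampus, and from few libraries. Grin1-null hippocampus gave 266 of them (62.1%), WT hippocampus 122 (28.5%), Grin1-null cortex 25 (5.84%) and WT cortex 15 (3.5%). Grin1-null hippocampus replicate 2 alone gave 253 (59.1%) and WT hippocampus replicate 1 gave 112 (26.2%). In the remaining libraries there were 7, 7 and 1 in WT cortex replicates 1, 2 and 3, none and 25 in Grin1-null cortex replicates 1 and 2, 6 and 4 in WT hippocampus replicates 2 and 3, and 13 in Grin1-null hippocampus replicate 1. The tests of gene expression in the main setting used only libraries with at least 10 Ptgds cells, of which there were 4.

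As a share of Mog cells, Ptgds cells were most frequent in Grin1-null hippocampus. They made up 14.6% of 89 Mog cells in Grin1-null hippocampus replicate 1 (95% Wilson interval 8.74 to 23.4%) and 23.3% of 1087 in replicate 2 (20.9 to 25.9%). In WT hippocampus they made up 10.4% of 1082 Mog cells in replicate 1 (8.67 to 12.3%), 0.375% of 1602 in replicate 2 (0.172 to 0.815%) and 0.716% of 559 in replicate 3 (0.279 to 1.83%). Both Grin1-null libraries lay above all 3 WT libraries, but WT hippocampus replicate 1 stood far above the other WT libraries and its interval overlapped that of Grin1-null replicate 1. The mean share was 18.9 ± 6.13% (SD, n = 2) in Grin1-null and 3.81 ± 5.66% (SD, n = 3) in WT hippocampus, a difference of 15.1 percentage points (two-sided exact permutation p = 0.2, where 0.1 is the smallest that 3 against 2 libraries allow). Within replicate 1 the difference was 4.26 points and within replicate 2 it was 22.9 points.

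In cortex the shares were lower. Ptgds cells made up 3.93% of 178 Mog cells in WT cortex replicate 1 (1.92 to 7.89%), 1.19% of 586 in replicate 2 (0.58 to 2.44%) and 0.326% of 307 in replicate 3 (0.0575 to 1.82%). In Grin1-null cortex replicate 2 they made up 5.29% of 473 Mog cells (3.61 to 7.69%), and in replicate 1 there were 0 of 17, with a 95% Wilson interval that reaches 18.4%. The WT and Grin1-null libraries of cortex overlapped, with means of 1.82 ± 1.88% (SD, n = 3) and 2.64 ± 3.74% (SD, n = 2) and a difference of 0.825 points (two-sided exact permutation p = 0.7). Without Grin1-null cortex replicate 2 the difference was -1.82 points, and without replicate 1 it was 3.47 points. Without WT cortex replicate 1 it was 1.88 points, without replicate 2 it was 0.514 and without replicate 3 it was 0.0791. Within replicate 1 the difference was -3.93 points and within replicate 2 it was 4.09, opposite in sign, with a mean of 0.0791.

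Between the regions of WT mice the share did not differ beyond the spread of the libraries. The means of 3.81 ± 5.66% in hippocampus and 1.82 ± 1.88% in cortex (SD, n = 3 each) differed by 2.0 points (two-sided exact permutation p = 0.8, smallest possible 0.1). Within replicates 1, 2 and 3 the difference was 6.42, -0.82 and 0.39 points. It turned to -1.27 points without WT hippocampus replicate 1, and it was 3.72 and 3.55 points without replicates 2 and 3 of hippocampus, 3.05 without WT cortex replicate 1 and 1.25 without WT cortex replicate 3. The difference between Grin1-null and WT libraries was 14.3 points larger in hippocampus than in cortex (two-sided exact permutation of genotype within regions, p = 0.15). This permutation took the regions as separate, although libraries of the same number were taken as pairs between the WT regions.

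A minimum in UMIs moves with depth, and depth moved with the libraries. The median depth of Mog cells low in Ptgds was 1524 UMIs in WT hippocampus replicate 2, against 4626 and 6900 in replicates 1 and 3 and 8274 and 8337 in Grin1-null hippocampus replicates 1 and 2. When Ptgds cells were instead those with at least 0.5% of their UMIs on Ptgds, the shares in WT hippocampus replicates 1, 2 and 3 were 9.15, 4.31 and 0.358%, and those in Grin1-null hippocampus 7.87 and 16.3%. With each cell thinned to 2000 UMIs and a minimum of 10 UMIs of Ptgds, they were 9.57, 1.88 and 0.44% in WT and 7.96 and 14.5% in Grin1-null hippocampus. On both of these scales Grin1-null replicate 1 lay below WT replicate 1, so the separation of the genotypes did not hold, and the difference of the means was 7.47 points with the gate in percent (exact permutation p = 0.3) and 7.27 points after thinning (exact permutation p = 0.3). Thinning left out 50, 1080 and 90 Mog cells of WT hippocampus replicates 1, 2 and 3 and 5 and 40 of Grin1-null replicates 1 and 2. It also brought in cells whose Klk6, Enpp6, Gad1 or Gad2 UMIs were lost, so the thinned Mog cells were another class, numbering 1128, 531 and 682 in WT and 113 and 1440 in Grin1-null hippocampus. The cortical shares with the gate in percent were 2.81, 2.9 and 0% in WT and 0 and 2.54% in Grin1-null libraries, and after thinning 2.39, 2.74 and 0.299% in WT and 0 and 2% in Grin1-null libraries, with 9, 285 and 72 WT and 5 and 98 Grin1-null Mog cells left out. The difference in cortex then turned, to -0.635 and -0.809 points.

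**Figure D1:**
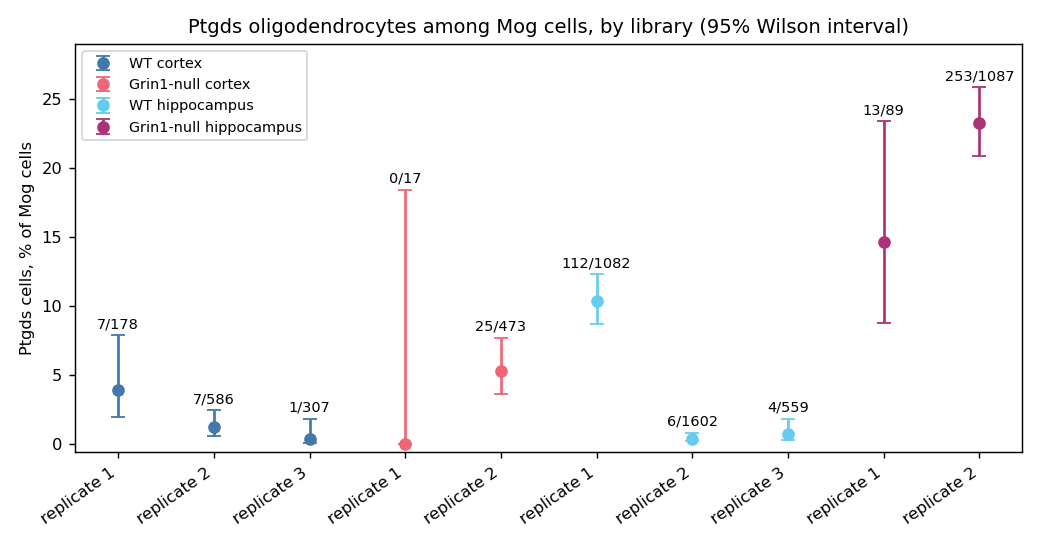
Ptgds cells as a percentage of Mog cells (vertical axis) in each of the 10 libraries, by region and genotype, with 95% Wilson intervals as bars and the numbers of Ptgds and Mog cells above them. Both Grin1-null hippocampus libraries (14.6 and 23.3%) lie above the WT hippocampus libraries (10.4, 0.375 and 0.716%), and the cortical libraries overlap.

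The level of Ptgds over all Mog cells, which no Ptgds minimum selects, separated the groups less than the share did. It was 1544, 640.5 and 179 CPM in WT hippocampus replicates 1, 2 and 3, and 1378 and 2243 CPM in Grin1-null hippocampus replicates 1 and 2. In cortex it was 639.9, 533 and 116 CPM in the WT and 439 and 562 CPM in the Grin1-null libraries. WT hippocampus replicate 1 was thus above Grin1-null replicate 1, and replicate 3 was the lowest of the WT libraries in either region. The Ptgds-low cells of WT hippocampus replicate 3 also held all 5 choroid plexus markers, with 5677 CPM of Ttr and a sum of 8234 CPM, and 115 CPM over the 7 fibroblast markers, where the other libraries had choroid plexus sums of 1382 to 2006 CPM, nearly all Enpp2. The part of these in the share and level of that library was not tested. The difference between Grin1-null and WT hippocampus was 1.65 on the log2 scale (means 10.8 and 9.13, n = 2 and 3, two-sided exact permutation p = 0.3). It was -0.16 within replicate 1 and 1.81 within replicate 2, so within replicates its mean was 0.82 (exact permutation p = 1). Between Grin1-null and WT cortex it was 0.54 (means 8.96 and 8.41, exact permutation p = 0.9), but -0.54 within replicate 1 and 0.08 within replicate 2, with a mean of -0.23 within replicates, the value that leaving out WT cortex replicate 3 also gives. Between WT hippocampus and WT cortex the difference was 0.72 (exact permutation p = 0.5), with 1.27, 0.27 and 0.63 within replicates 1, 2 and 3, all in favour of the hippocampus. It was -0.01 without WT hippocampus replicate 1 and -0.06 without WT cortex replicate 3.

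Interneurons, the cells the sort was made for, had little Ptgds. Their level was 1.8 to 14.1 CPM over the 10 libraries, and none had 20 UMIs of it. The share of interneurons with any UMI of Ptgds was 1.19 to 15.3% (median depths of 2629 to 14559.5 UMIs), while among the shallower Mog cells it was 55.1, 28 and 19.2% in WT cortex replicates 1, 2 and 3, 47.1 and 41.2% in the Grin1-null cortex libraries, 57.4, 31.1 and 22.2% in WT hippocampus and 66.3 and 69.1% in Grin1-null hippocampus. Within the Ptgds cells the level was 7052, 8502 and 3331 CPM in WT cortex, 5163 CPM in Grin1-null cortex replicate 2, 10560.4, 10432 and 5199 CPM in WT hippocampus and 8338 and 8665 CPM in Grin1-null hippocampus, values that the threshold itself helps to set. Tomato, the reporter transcript, had a UMI in 309 of the 428 cells (72.2%). Its level was 220.4 CPM in Ptgds and 259 in Ptgds-low cells of Grin1-null cortex replicate 2, 119 against 204 and 395 against 379 in Grin1-null hippocampus replicates 1 and 2, and 123 against 140.4 in WT hippocampus replicate 1, with 457 to 1057 CPM in the interneurons of the 10 libraries.

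Ptgds cells were compared with the Ptgds-low cells of the same libraries to see which other genes go with a high level of Ptgds. They had more Car2 and Aspa, the ion pump subunit gene Atp1b3 and the pterin-recycling enzyme gene Qdpr, and less of 8 of 10 tested genes of newly formed oligodendrocytes and 8 of 18 of cholesterol synthesis. Without Grin1-null hippocampus replicate 2, Aspa, 5 of these 8 newly formed genes and all 8 cholesterol genes no longer passed or could not be tested. UMIs were summed per library and class, and the sums were tested with edgeR's quasi-likelihood test with the library as a block, in the 4 libraries that had at least 10 cells of both classes (Grin1-null cortex replicate 2, Grin1-null hippocampus replicates 1 and 2, and WT hippocampus replicate 1). A gene passed at a Benjamini-Hochberg adjusted p under 0.01 and a log2 change of 0.144 or more in size (0.1 in natural logs), and all log2 changes are Ptgds cells minus the other class. Of 8004 genes tested 205 passed (2.56%), 70 of them higher in Ptgds cells (0.875%) and 135 lower (1.69%), while 1058 (13.2%) had an unadjusted p under 0.05. The count rested on the largest library: it was 27 without Grin1-null hippocampus replicate 2, 125 without WT hippocampus replicate 1 and 317 without Grin1-null cortex replicate 2. The number that passed was also lower with DESeq2 (63, of which 62 were among the 205), with cells thinned to 2000 UMIs (77) and without the block (4). It was 139 when cells with any Enpp6 were left out, an alternative chosen after seeing the data.

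Among the markers named for these cells, Car2 and Aspa rose, while Mal and Trf did not pass. Car2 was at 1823 CPM in Ptgds and 1315 in Ptgds-low cells of Grin1-null cortex replicate 2, 3350.4 against 2051 in Grin1-null hippocampus replicate 1, 1975 against 1241 in replicate 2, and 3616 against 1716 in WT hippocampus replicate 1. It was higher in all 4 pairs, by 0.73 ± 0.11 on the log2 scale (SE; adjusted p = 1.19e-05), and its call held without any single library. Aspa was at 942 against 739.9 CPM, 840.3 against 413, 925 against 638 and 534 against 385 in the same order, higher in all 4 pairs by 0.56 ± 0.11 (adjusted p = 0.00097). The adjusted p of Aspa was 0.0111 without Grin1-null hippocampus replicate 1, 0.0794 without replicate 2 and 0.0119 without WT hippocampus replicate 1. Mal was at 14491 against 12517, 9879 against 6679.6, 16045 against 13511 and 7414 against 6703 CPM, a log2 difference of 0.29 ± 0.11 (adjusted p = 0.173). Trf was at 1491 against 2147, 4794 against 2647, 2359 against 2048 and 3985 against 3587 CPM, lower in Ptgds cells of Grin1-null cortex replicate 2 and higher in the other pairs. Its log2 difference was 0.17 ± 0.13 (adjusted p = 0.659), 0.36 without Grin1-null cortex replicate 2 (adjusted p = 0.00944) and -0.02 without Grin1-null hippocampus replicate 1. The 4 tested markers had a median of 0.42, against -0.00 over all genes tested.

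In mm10 these genes lie apart from each other and from Ptgds (chromosome 2, 25466709 to 25470046, minus strand). Car2 is on chromosome 3 (14886273 to 14900770, plus strand), Trf on chromosome 9 (103204001 to 103230444, minus strand), Mal on chromosome 2 (127633226 to 127656695, minus strand) and Aspa on chromosome 11 (73304992 to 73329596, minus strand).

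Genes of late mature oligodendrocytes split. Of the 13 on that list 12 were tested, 4 rose, 2 fell, and their median was 0.33. Over all genes tested 2.56% passed, the share to set beside the count of each list here. The lists were chosen with earlier results of these data known, so their counts are not independent support. Besides Car2 and Aspa, the risers were Qdpr, encoding quinoid dihydropteridine reductase, which regenerates tetrahydrobiopterin, and Cryab, encoding the small heat shock protein alpha-B crystallin. Qdpr was at 1179.5 CPM in Ptgds and 775 in Ptgds-low cells of Grin1-null cortex replicate 2, 1099 against 462 and 1075 against 697 in Grin1-null hippocampus replicates 1 and 2, and 1483 against 837 in WT hippocampus replicate 1 (log2 change 0.79 ± 0.11, adjusted p = 3.62e-06), and its call held without any single library. Cryab was at 3323 against 2238, 4514 against 2247, 2797 against 2036 and 4129 against 3234 CPM (0.58 ± 0.11, adjusted p = 3.94e-04), and its adjusted p was 0.0104 without Grin1-null hippocampus replicate 1 and 0.034 without replicate 2. S100b, encoding a calcium-binding protein, fell by 0.74 ± 0.16 and Gsn, encoding the actin-severing protein gelsolin, fell by 0.51 ± 0.12. The adjusted p was 0.204 for S100b and 0.243 for Gsn without Grin1-null hippocampus replicate 2, and that of Gsn was also past 0.01 without Grin1-null hippocampus replicate 1 (0.0181) and WT hippocampus replicate 1 (0.129).

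Structural myelin genes as a list lay close to all genes tested. Of the 19 on the list 18 were tested, 1 rose, 1 fell and the median was -0.05, while 2.56% of all genes tested passed. Mbp was at 10594 against 12630 CPM in Grin1-null cortex replicate 2, 11926 against 19229 and 10438 against 13311 in Grin1-null hippocampus replicates 1 and 2, and 16075 against 20134 in WT hippocampus replicate 1, lower in Ptgds cells of all 4. It had a log2 difference of -0.41 (adjusted p = 0.0273) and Mobp of -0.42 (adjusted p = 0.0261), and neither passed. The riser was Cntn2, encoding contactin-2, a cell adhesion protein of the juxtaparanode (0.69 ± 0.14, adjusted p = 0.00132), whose adjusted p was 0.0104 without Grin1-null hippocampus replicate 1 and 0.234 without replicate 2. The faller was Nfasc, whose glial product anchors the myelin loops beside the node of Ranvier. Nfasc was at 791 against 943, 431 against 1196, 650.2 against 1274 and 408 against 902 CPM, lower in Ptgds cells of all 4 libraries (log2 change -0.91 ± 0.13), with an adjusted p of 0.0127 without Grin1-null hippocampus replicate 2.

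Genes of pH, potassium and chloride handling contained the clearest rise. Of the 13 on the list 12 were tested, 3 rose, none fell and the median was 0.21. Among all genes tested 0.875% rose. Atp1b3, encoding a beta subunit of the sodium-potassium pump, was at 363 against 204 CPM in Grin1-null cortex replicate 2, 442 against 99.6 and 369 against 172 in Grin1-null hippocampus replicates 1 and 2, and 438 against 183 in WT hippocampus replicate 1. Every Ptgds value of Atp1b3 lay above every Ptgds-low value, and the log2 change was 1.22 ± 0.13 (adjusted p = 3.98e-09). Car14, encoding a membrane-bound carbonic anhydrase, was at 359 against 273, 549 against 242, 467 against 292 and 361 against 221 CPM (0.71 ± 0.12, adjusted p = 5.59e-05, and 0.0258 without Grin1-null hippocampus replicate 2). Car2 was the third. Kcna1, a potassium channel gene, had a log2 difference of 0.43 (adjusted p = 0.0233) and did not pass.

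Genes of newly formed and early myelinating oligodendrocytes fell. Of the 15 on the list 10 were tested, 8 fell, none rose and the median was -0.99. Over all 8004 genes tested 1.69% fell. Both classes could hold cells with 1 UMI of Enpp6, itself a gene of this list. Rras2, encoding a small GTPase, was at 8.64 against 62.7 CPM in Grin1-null cortex replicate 2, 0 against 109 and 8.73 against 60.8 in Grin1-null hippocampus replicates 1 and 2, and 19.6 against 92 in WT hippocampus replicate 1 (log2 change -2.69 ± 0.23). The others were Cnksr3 (-2.01), Itpr2 (-1.59), Tcf7l2 (-1.13), Fyn (-1.01), Gpr17 (-0.96), Ctps (-0.80) and Arpc1b (-0.55). Fyn encodes a kinase needed for myelination, Tcf7l2 a transcription factor of differentiating oligodendrocytes and Gpr17 a receptor of the step from precursor to myelinating cell. Rras2, Cnksr3 and Fyn passed without any single library. Without Grin1-null hippocampus replicate 2 Itpr2 had too few counts to be tested, and the adjusted p was 0.0992 for Tcf7l2, 0.17 for Gpr17, 0.1 for Ctps and 0.186 for Arpc1b. Without WT hippocampus replicate 1 it was 0.0744, 0.0127, 0.105 and 0.0729 for the same genes, and without Grin1-null hippocampus replicate 1 it was 0.0662 for Arpc1b.

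Precursor genes were near the limit of detection in Ptgds cells. Of the 9 on the list only 3 were tested, and Ptprz1 and Sox4 passed as lower. Ptprz1, encoding a receptor phosphatase of precursors, had no UMI in the Ptgds cells of the 4 libraries and 30.5, 13.1, 8.87 and 8.51 CPM in the Ptgds-low cells of Grin1-null cortex replicate 2, Grin1-null hippocampus replicates 1 and 2 and WT hippocampus replicate 1, at least 13.0-fold lower against a floor of 3 UMIs over the 4 libraries. It entered the test only through the Ptgds-low cells, so its direction there was given. Sox4, encoding a transcription factor of immature cells, had a log2 change of -0.87 and an adjusted p of 0.604 without Grin1-null hippocampus replicate 2. Ptprz1 had too few counts to be tested without that library. Of the 12 transcription factors of the lineage, all tested, only Tcf7l2 passed, the median was 0.01, and the most abundant, Olig1, Nkx6-2 and Zeb2, were at 1934, 921 and 506 CPM in Ptgds cells.

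Of the 18 cholesterol synthesis genes, all tested, 8 fell and 10 did not pass, while 1.69% of all genes tested fell. All 18 had a log2 value below 0, with a median of -0.51. Hmgcs1, encoding a synthase early in the pathway, was at 1136 against 1590.1 CPM in Grin1-null cortex replicate 2, 571 against 1403 and 1047 against 1893 in Grin1-null hippocampus replicates 1 and 2, and 1015 against 1503 in WT hippocampus replicate 1 (-0.75 ± 0.12). In every one of these pairs the Ptgds cells were lower. Also among the fallers were Lss (-1.07), Mvd (-0.75), Idi1 (-0.61), Cyp51 (-0.53) and Sqle (-0.51). None of the 8 passed without Grin1-null hippocampus replicate 2, where the adjusted p was 0.0291 for Hmgcs1, 0.0258 for Lss, 0.0794 for Mvd, 0.245 for Idi1, 0.522 for Cyp51 and 0.127 for Sqle. Without WT hippocampus replicate 1 it was past 0.01 for Cyp51 (0.124) and Sqle (0.241), and without Grin1-null hippocampus replicate 1 for Sqle (0.0111).

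Of the 15 genes of myelin lipid synthesis, all tested, Aspa rose and Elovl6 (-0.68) and Fasn (-0.65), which encode a fatty acid elongase and fatty acid synthase, fell, with a median of -0.11. Their adjusted p was 0.118 for Elovl6 and 0.0615 for Fasn without Grin1-null hippocampus replicate 2, and without WT hippocampus replicate 1 it was 0.0173 and 0.121. Of the 12 genes of axonal energy supply 11 were tested, and Pfkp, a phosphofructokinase gene of glycolysis, fell (-1.75, and an adjusted p of 0.0965 without Grin1-null hippocampus replicate 2), with a median of 0.02. Slc16a1, which encodes the lactate transporter MCT1, had a log2 difference of -0.65 (adjusted p = 0.0375) and did not pass. Of the 16 immediate early and stress genes 12 were tested and Hsp90aa1 rose (0.45 ± 0.11, adjusted p = 0.00777), with a median of -0.06. Its adjusted p was 0.053 and 0.152 without Grin1-null hippocampus replicates 1 and 2 and 0.194 without WT hippocampus replicate 1.

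The largest rises and falls with the same sign in all 4 pairs were taken by rule, on a list or not. The rises were Spock1 (1.58), Cpeb1 (1.54), Fam13c (1.30), Atp1b3, Neat1 (1.10), Fn3k (1.09), Fbxo2 (1.03), Pnmal2 (1.03), Sgk1 (1.01) and Fhl1 (1.01). Fam13c was at 104 against 80.4 CPM in Grin1-null cortex replicate 2, 140.0 against 27.7 and 147 against 62.8 in Grin1-null hippocampus replicates 1 and 2, and 226 against 72.3 in WT hippocampus replicate 1. Sgk1, encoding a kinase induced by glucocorticoids, was at 311 against 239, 679 against 197, 393 against 216 and 83.7 against 30.1 CPM. Fam13c, Atp1b3, Fbxo2 and Sgk1 passed without any single library, and Neat1 is a long noncoding RNA. Without Grin1-null hippocampus replicate 2 the adjusted p was 0.017 for Neat1, 0.0808 for Fn3k, 0.0794 for Pnmal2 and 0.0258 for Fhl1, and Spock1 and Cpeb1 had too few counts to be tested. Without Grin1-null hippocampus replicate 1 it was 0.0147 for Spock1 and 0.0176 for Fn3k, and without WT hippocampus replicate 1 it was 0.162 for Fn3k and 0.0548 for Fhl1. Fn3k also lost its call without Grin1-null cortex replicate 2 (0.0133). Glul, which encodes glutamine synthetase, was chosen after its values were seen: its log2 change was 1.28 ± 0.17, but it was higher in 3 of the 4 pairs only, at 385 against 459.8 CPM in Grin1-null cortex replicate 2 and 2650.2 against 532, 865 against 369 and 1501 against 492 CPM in the others.

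The falls by the same rule were Nkain4 (-3.76), Marcks (-3.49), Bcan (-3.24), Fam181b (-3.24), Rras2, Tubb2b (-2.56), Clu (-2.33), 1810041L15Rik (-2.30), Rtn1 (-2.10) and Sparcl1 (-2.03). Marcks, encoding a membrane and actin regulator of growing processes, was at 13 against 327 CPM in Grin1-null cortex replicate 2, 0 against 258 and 25.7 against 324 in Grin1-null hippocampus replicates 1 and 2, and 41 against 260.2 in WT hippocampus replicate 1 (adjusted p = 7.20e-18, the smallest of all 8004 genes). Clu was at 13 against 40.8, 10.8 against 379, 9.22 against 38.3 and 7.12 against 19.5 CPM, and Bcan at 0 against 39.2, 0 against 53.9, 2.91 against 28.3 and 5.34 against 26 CPM. Bcan was near or at 0 in the Ptgds cells of every library and entered the test through the Ptgds-low cells. Its direction there was therefore given. Bcan encodes a proteoglycan of precursors and astrocytes, Tubb2b a tubulin of young neural cells and Clu a chaperone abundant in astrocytes. Nkain4 and Fam181b lost their call without Grin1-null hippocampus replicate 2 (adjusted p 0.0211 and 0.0141), where Sparcl1 had too few counts to be tested, and the others named here passed without any single library.

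Markers of other cell types moved with these falls, and their part in them was not tested. Of 4 tested astrocyte genes 3 fell (Clu, Aldoc at -1.67 and Slc1a2 at -2.02) with a median of -1.84, and of 5 tested interneuron genes Sst fell (-1.04) with a median of -0.61. The summed level of the 8 astrocyte markers was 60.5 CPM in Ptgds and 174 in Ptgds-low cells of Grin1-null cortex replicate 2, 53.9 against 1232 and 44.2 against 169 in Grin1-null hippocampus replicates 1 and 2, and 64.1 against 70.6 in WT hippocampus replicate 1. The sum of the 11 interneuron and neuron markers was 82.1 against 747, 53.9 against 397, 214 against 215 and 21.4 against 31.4 CPM in the same order. The sums were thus far apart in some of these libraries and close in others. Sst was at 21.6 against 275 CPM in Grin1-null cortex replicate 2, 0 against 220.3 and 72.3 against 85.9 in Grin1-null hippocampus replicates 1 and 2, and 7.12 against 7.89 in WT hippocampus replicate 1. Sst lost its call without Grin1-null cortex replicate 2 (adjusted p = 0.0598) or Grin1-null hippocampus replicate 1 (0.084), and Slc1a2 without Grin1-null hippocampus replicate 2 (0.121), where Aldoc had too few counts to be tested.

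The libraries with fewer than 10 Ptgds cells were not used in the test, and their 25 Ptgds cells were summed to read the same genes. There, 63 of the 70 genes that rose were higher in Ptgds than in Ptgds-low cells (90%), and 119 of the 135 that fell were lower (88.1%), while 45.7% of all tested genes were higher. The single libraries were WT cortex replicates 1, 2 and 3, which had 7, 7 and 1 Ptgds cells, and WT hippocampus replicates 2 and 3, which had 6 and 4. Their shares were lower in this order: 62.9, 67.1, 37.1, 54.3 and 68.6% of the 70 were higher (42.8, 38.1, 25.7, 33.1 and 43.1% of all tested genes) and 85.9, 80.7, 71.9, 80 and 84.4% of the 135 were lower (57.2, 61.9, 74.3, 66.9 and 56.9% of all). In WT cortex replicate 3, with its 1 cell, most of the 70 were lower in the Ptgds cell and the share of the 135 was below that of all genes.

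**Figure D2:**
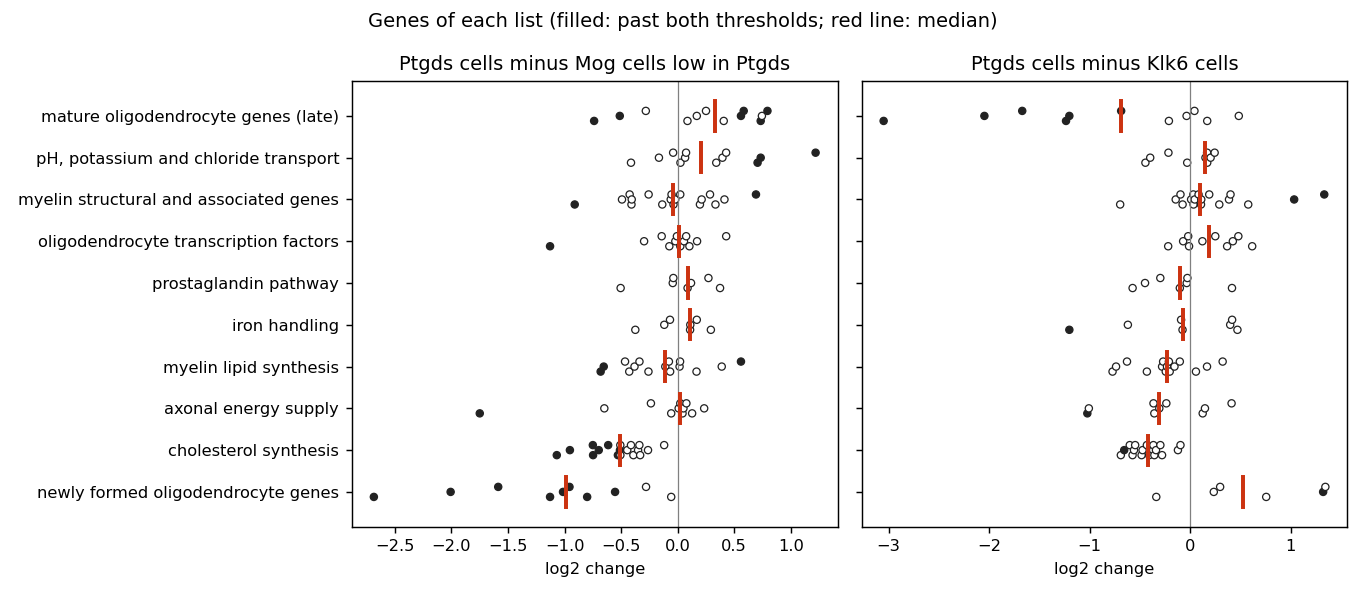
Log2 change of each tested gene of 10 of the gene lists (points) and the list median (line), for Ptgds against Ptgds-low cells and for Ptgds against Klk6 cells, with genes past the thresholds filled. In the first comparison all 18 cholesterol synthesis genes lie below 0 and the newly formed oligodendrocyte genes have a median of -0.99.

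Some of these genes followed the amount of Ptgds within a library. The libraries binned here were also in the test above, with the same Mog cells. The bins thus show those values in finer steps and add no separate support. In Grin1-null hippocampus replicate 2, Mog cells with 0, 1 to 4, 5 to 19, 20 to 39, 40 to 79 and at least 80 UMIs of Ptgds numbered 336, 286, 212, 86, 84 and 83. Car2 was at 911, 1439, 1444, 1634, 2160.2 and 2168 CPM in these bins, Atp1b3 at 128, 191, 208, 254, 393 and 473 CPM and Aspa at 472, 707, 779, 855, 925 and 1002 CPM. All of these increased from each bin to the next. The markers Trf, at 1790, 2343, 2030, 2043, 2612 and 2455 CPM, and Mal, at 11019, 14832, 15282, 14484, 16721 and 17091 CPM, did not keep that order. Marcks was at 659, 154, 75.5, 35.5, 15.1 and 25.5 CPM and Nfasc at 1695, 1016, 1018, 866, 580.1 and 482 CPM, and the largest step was from cells without Ptgds to cells with 1 to 4 UMIs of it. Mbp was at 15007, 12687, 11758, 10376, 10538 and 10406 CPM. The median depth of the bins was 7965, 8312.5, 8745.5, 8178, 7441 and 7544 UMIs.

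The same bins in WT hippocampus replicate 1 held 461, 321, 188, 56, 37 and 19 cells. Car2 was at 1214, 1874, 2517, 3129, 3982 and 4210.2 CPM, Atp1b3 at 142, 179, 274, 365, 459 and 589 CPM and Glul, chosen after its values were seen, at 317, 554, 759, 1166, 1556 and 2269 CPM. These 3 increased from bin to bin, the last step resting on a bin of 19 cells, without which the highest values were 3982, 459 and 1556 CPM. Aspa did not keep that order, at 270.3, 449, 523, 507, 548 and 579 CPM. Nfasc was at 1112, 807, 614, 473, 401 and 251 CPM, lower in each bin than in the one before. Marcks was at 461, 153, 13.9, 14.9, 89.7 and 19.3 CPM, low from 5 UMIs of Ptgds upward but not in order. The median depth was 4235, 4885, 5062.5, 4614.5, 4981 and 5212 UMIs, highest in the bin with most Ptgds, which it was not in Grin1-null hippocampus replicate 2. The part of depth in these gradients was not tested.

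**Figure D3:**
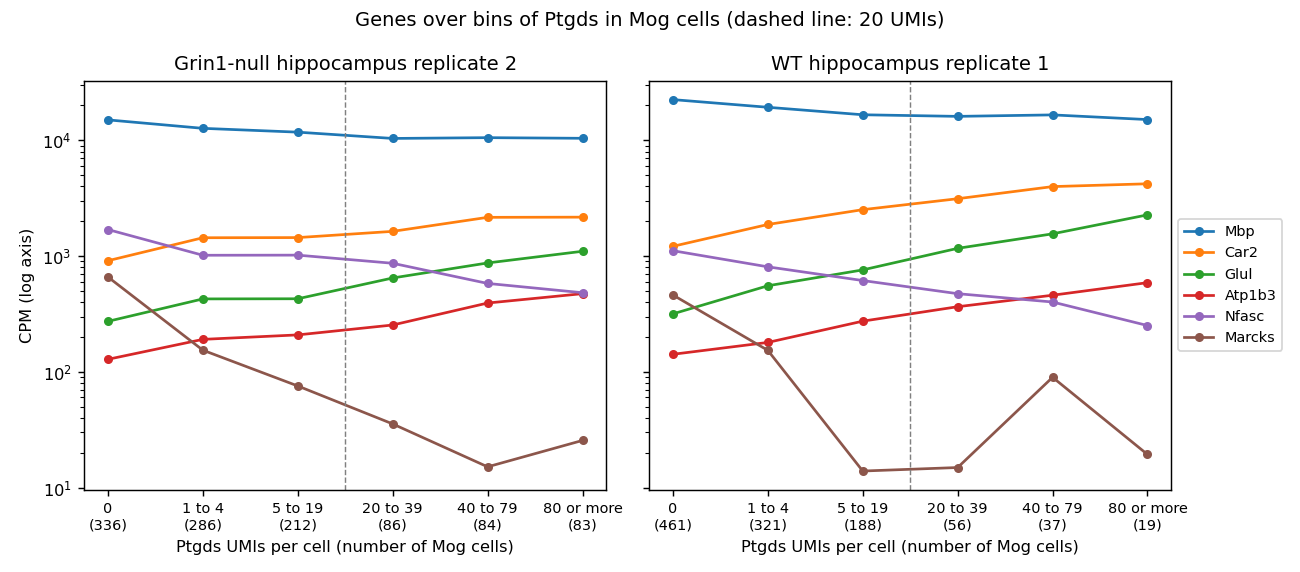
Levels of Mbp, Car2, Glul, Atp1b3, Nfasc and Marcks (CPM, log axis) in Mog cells binned by UMIs of Ptgds, with the number of cells under each bin and the threshold of 20 UMIs dashed, in Grin1-null hippocampus replicate 2 and WT hippocampus replicate 1. Car2 goes from 911 to 2168 CPM over the bins of the first library and from 1214 to 4210.2 CPM over those of the second.

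Ptgds cells were next compared with Klk6 cells, the other mature state, which had at least 1 UMI of Klk6, at least 1 of Mog, fewer than 2 of Enpp6 and at most 1 of Gad1 and Gad2 together, at any level of Ptgds. There were 533 Klk6 cells. Relative to them the Ptgds cells had more Cxcl12, Synpr, Opalin and Nfasc, and less Trf, Pmp22, Anxa5, S100b and Hapln2, while Car2, Mal and Aspa did not pass. In 3 libraries with at least 10 cells of both classes (Grin1-null cortex replicate 2, Grin1-null hippocampus replicate 2 and WT hippocampus replicate 1) 104 of 5616 tested genes passed (1.85%), 46 higher in Ptgds cells (0.819%) and 58 lower (1.03%), with 815 (14.5%) at an unadjusted p under 0.05. The count was 32 without Grin1-null hippocampus replicate 2, 29 with DESeq2 (all 29 among the 104), 61 after thinning and 49 when cells with any Enpp6 were left out, an alternative chosen after seeing the data. Without the library as a block none passed in edgeR, with 417 genes at an unadjusted p under 0.05.

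Of the markers named for Ptgds cells, Trf was lower in them than in Klk6 cells. Trf was at 1491 CPM in Ptgds and 4763 in Klk6 cells of Grin1-null cortex replicate 2, 2359 against 4509 in Grin1-null hippocampus replicate 2 and 3985 against 7730.1 in WT hippocampus replicate 1. It was lower in all 3 pairs, with a log2 change of -1.20 ± 0.15 (adjusted p = 9.13e-05, and 0.0102 without Grin1-null hippocampus replicate 2). Car2 was at 1823 against 1477, 1975 against 1745 and 3616 against 3365 CPM (0.17, adjusted p = 0.597), and Aspa at 942 against 1141, 925 against 1056 and 534 against 567 CPM (-0.21, adjusted p = 0.477). Mal had a log2 difference of 0.11 (adjusted p = 0.78). None of the 4 tested markers thus rose in Ptgds cells, and their median was -0.05 against -0.01 over all genes tested.

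**Figure D4:**
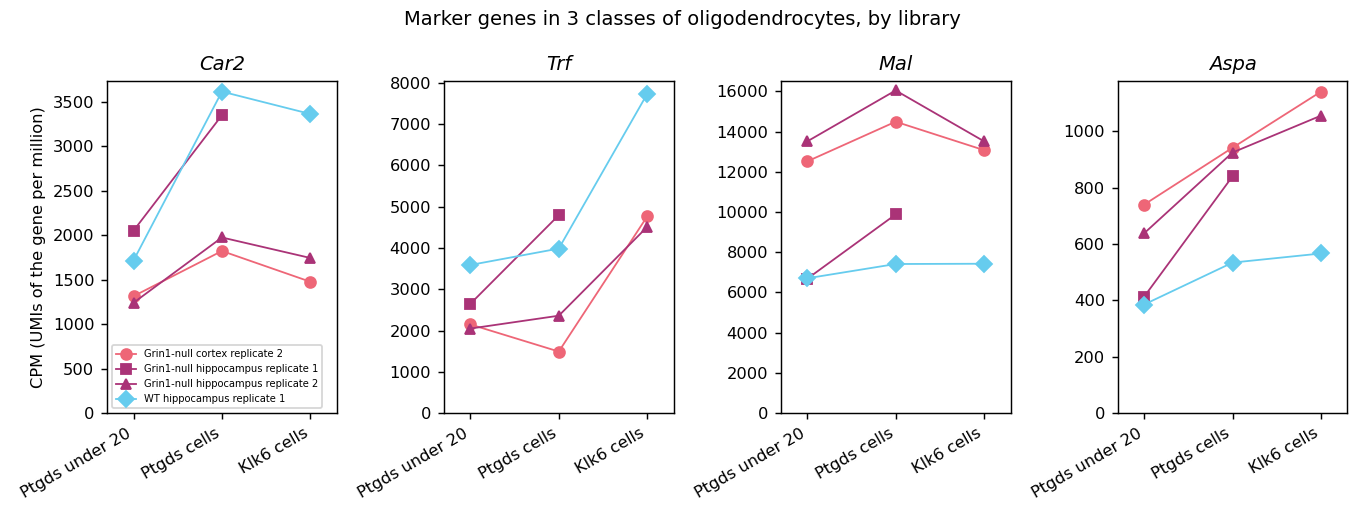
Levels of Car2, Trf, Mal and Aspa (CPM, axes from 0) in Ptgds-low, Ptgds and Klk6 cells of each library that entered the tests, with lines joining the classes of a library. Car2 is higher in Ptgds than in Ptgds-low cells of all 4 libraries, and Trf is lower in Ptgds than in Klk6 cells of all 3.

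Of 11 late mature genes tested against Klk6 cells 6 fell and none rose, while 1.03% of all genes tested fell. The other 5 did not pass, 3 of the 11 were above 0 and the median was -0.69. S100b was at 38.9 CPM in Ptgds and 925 in Klk6 cells of Grin1-null cortex replicate 2, 53.9 against 577 in Grin1-null hippocampus replicate 2 and 110.4 against 337 in WT hippocampus replicate 1 (-3.05 ± 0.28). Hapln2, encoding a link protein of the extracellular matrix at the node, was at 90.7 against 645, 68.9 against 370.4 and 199 against 414 CPM (-2.05 ± 0.22), and Apod, encoding apolipoprotein D, at 445 against 1681, 659 against 1434 and 807 against 1307 CPM (-1.23 ± 0.17). Each of these was lower in Ptgds cells of all 3 libraries. Trf, Anln (-1.67) and Gsn (-0.69) were the others that fell. Without Grin1-null hippocampus replicate 2 the adjusted p was 0.0138 for Apod, 0.0257 for Anln and 0.193 for Gsn, and without WT hippocampus replicate 1 it was 0.0781 for Gsn. S100b and Hapln2 passed without any single library.

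The largest falls against Klk6 cells were Pmp22 and Anxa5. Pmp22, known for its role in peripheral myelin, was at 8.64 against 562 CPM in Grin1-null cortex replicate 2, 12.1 against 233 in Grin1-null hippocampus replicate 2 and 10.7 against 59.1 in WT hippocampus replicate 1 (-4.30 ± 0.27, adjusted p = 3.56e-08). Anxa5, encoding annexin A5, was at 13 against 389, 14.1 against 157 and 14.2 against 59.1 CPM (-3.51 ± 0.26). It was the 1 tested gene of the list of Klk6-type genes. After S100b, Sepp1 (-2.33), Tmsb10 (-2.22), Hapln2, Plin3 (-2.01), Rftn2 (-1.86), Cdkn1c (-1.81) and Serpinb1a (-1.76) completed the 10 largest falls. Rftn2, Cdkn1c and Serpinb1a lost their call without Grin1-null hippocampus replicate 2 (adjusted p 0.113, 0.0192 and 0.032), Rftn2 and Serpinb1a also without Grin1-null cortex replicate 2 (0.0105 and 0.0397), and Rftn2 without WT hippocampus replicate 1 (0.0148). Ldhb, encoding a subunit of lactate dehydrogenase, fell as the 1 called gene of the 9 tested for axonal energy supply (-1.02, and an adjusted p of 0.103 without Grin1-null hippocampus replicate 2), with a median of -0.31.

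Ptgds cells had more of a chemokine gene and a synaptic vesicle gene than Klk6 cells. Cxcl12, encoding the chemokine CXCL12, was at 315 CPM in Ptgds and 21.9 in Klk6 cells of Grin1-null cortex replicate 2, 161 against 36.3 in Grin1-null hippocampus replicate 2 and 28.5 against 6.95 in WT hippocampus replicate 1 (3.01 ± 0.28, adjusted p = 4.12e-06). Synpr, encoding the vesicle protein synaptoporin, was at 82.1 against 4.18, 57.7 against 15.3 and 53.4 against 10.4 CPM (2.78 ± 0.40). Both were higher in all 3 pairs. Wfdc18 (2.27), Them6 (2.15), Btbd16 (2.11), Itgad (2.06), Prickle1 (2.01), Pcdh7 (1.99) and Rras (1.87) were also among the 10 largest rises. Without Grin1-null hippocampus replicate 2 the adjusted p was 0.155 for Wfdc18 and 0.0335 for Pcdh7, and without WT hippocampus replicate 1 it was 0.0137 for Wfdc18.

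Of the 18 structural myelin genes tested against Klk6 cells 2 rose, none fell and the median was 0.10. Among all genes tested 0.819% rose. Opalin, a membrane glycoprotein gene of central myelin, was at 2653 against 520.3 CPM in Grin1-null cortex replicate 2, 1822 against 788 in Grin1-null hippocampus replicate 2 and 1562 against 1095 in WT hippocampus replicate 1 (1.33 ± 0.22, adjusted p = 0.00148, and 0.0257 without Grin1-null hippocampus replicate 2). Nfasc was at 791 against 279, 650.2 against 403 and 408 against 202 CPM (1.04 ± 0.15). Nfasc was thus lower in Ptgds cells than in Ptgds-low cells and higher than in Klk6 cells, in every library tested. Of 6 tested genes of newly formed oligodendrocytes Ctps, encoding CTP synthase, rose (1.32, and an adjusted p of 0.0111 without Grin1-null cortex replicate 2), with a median of 0.53. Cholesterol synthesis genes were below 0 in all 18, with Msmo1 past the thresholds (-0.66, and an adjusted p of 0.125 without Grin1-null hippocampus replicate 2 and 0.0184 without WT hippocampus replicate 1) and a median of -0.42. Glul, chosen after its values were seen, had a log2 change of -0.93.

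In the remaining lists none passed against Klk6 cells, apart from Trf in the iron list. The medians were 0.12 for precursor genes (2 tested), 0.19 for transcription factors (10), -0.10 for the prostaglandin pathway (7), -0.08 for iron handling (7), -0.23 for lipid synthesis (15), 0.15 for pH and ion transport (9) and 0.36 for immediate early and stress genes (9). The 38 Ptgds cells of the libraries outside this test gave the same signs for 45 of the 46 genes that rose (97.8%) and 57 of the 58 that fell (98.3%), while 47.8% of all tested genes were higher. Those were sums over 6 libraries. Singly, WT cortex replicates 1, 2 and 3 gave the same sign for 79.1, 60 and 79.5% of the risers with a UMI, WT hippocampus replicates 2 and 3 for 65 and 97.7% and Grin1-null hippocampus replicate 1 for 84.4%, where 48.4, 41.8, 32.7, 42.4, 49.7 and 52% of all tested genes were higher. For the fallers the shares were 100, 91.4, 93.1, 74.1, 96.6 and 75.4% in the same order, against 51.6, 58.2, 67.3, 57.6, 50.3 and 48% of all tested genes lower.

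The comparison of genotypes asks whether Ptgds cells differed between mice with and without Grin1 in this lineage. In hippocampus H2-Ab1, Mgp and Sgk1 were higher in Ptgds cells of both Grin1-null libraries than in those of WT replicate 1, and Xist was at 0 in both. That was the only WT library with at least 10 Ptgds cells, so the spread between WT libraries was not measured and the calls describe these 3 libraries rather than the genotypes. The test set Grin1-null hippocampus replicates 1 and 2 against WT hippocampus replicate 1, with Grin1-null cortex replicate 2 in the same model, and the lone WT library was assumed to vary like the Grin1-null libraries. Of 5838 genes tested 13 passed (0.223%), 12 higher (0.206%) and 1 lower in Grin1-null (0.0171%), and 265 (4.54%) had an unadjusted p under 0.05. The count was 2 with DESeq2, and 3 when libraries with at least 5 Ptgds cells were allowed, an alternative chosen after seeing the data that adds WT hippocampus replicate 2 and WT cortex replicates 1 and 2. With DESeq2 11 of the 13 calls were lost. With Ptgds at 0.5% of UMIs or more 6 of the 12 still tested changed sign, and after thinning 4 of the 9 still tested did. Nearly all other calls were lost in both settings. Both left out Grin1-null hippocampus replicate 1, which then had 7 and 9 Ptgds cells, and brought in WT hippocampus replicate 2. The Grin1-null hippocampus group there was replicate 2 alone, so its spread was not measured. All 13 passed without Grin1-null cortex replicate 2, which is in neither group, but leaving out a hippocampal library left no residual degrees of freedom or no WT library.

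H2-Ab1, encoding a chain of the class II histocompatibility molecule, was at 215 and 109 CPM in Ptgds cells of Grin1-null hippocampus replicates 1 and 2, 367 CPM in those of Grin1-null cortex replicate 2 and 0 in those of WT hippocampus replicates 1, 2 and 3. It was at least 21.3-fold higher in Grin1-null hippocampus than in WT hippocampus replicate 1, against a floor of 3 UMIs in that library, and it passed with at least 5 cells per sum (adjusted p = 1.26e-06) but not with DESeq2 (0.0848) or with Ptgds at 0.5% of UMIs or more. With no UMI in the Ptgds cells of WT hippocampus replicate 1, H2-Ab1 entered that comparison only through the Grin1-null libraries. Its direction there was therefore given. In Ptgds cells of WT cortex H2-Ab1 was at 0, 73.6 and 0 CPM in replicates 1, 2 and 3. The Ptgds-low cells gave values in all 10 libraries: 2.94, 84.3 and 0.624 CPM for WT cortex, 1.04, 45.2 and 3.2 for WT hippocampus, 258 and 191 for Grin1-null cortex and 196 and 223 for Grin1-null hippocampus. All 4 Grin1-null libraries there lay above all 6 WT libraries. H2-Ab1 was read there because of its call, in cells of the same preparations. The share of all genes that separate the libraries in this way is not given, so this is not separate support. H2-Ab1 is on chromosome 17 (34257689 to 34269419, plus strand).

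Sgk1 was at 679 and 393 CPM in Ptgds cells of Grin1-null hippocampus replicates 1 and 2, 311 CPM in Grin1-null cortex replicate 2 and 83.7, 65.2 and 42.1 CPM in WT hippocampus replicates 1, 2 and 3. The log2 change was 2.61, which did not pass in DESeq2 (adjusted p = 0.0848) or with at least 5 cells per sum (0.0631), nor with Ptgds at 0.5% of UMIs or more or after thinning. In Ptgds-low cells Sgk1 was at 54.9, 153 and 53.6 CPM for WT cortex, 30.1, 75.7 and 36.8 for WT hippocampus, 297 and 239 for Grin1-null cortex and 197 and 216 for Grin1-null hippocampus, again with every Grin1-null library above every WT library. Sgk1 too was read there because of its call, and the same limit holds. Mgp, encoding matrix Gla protein, was at 409 and 574 CPM in Ptgds cells of Grin1-null hippocampus and at 24.9, 0 and 0 CPM in WT hippocampus replicates 1, 2 and 3 (log2 change 4.30), and it passed also with DESeq2 and with at least 5 cells per sum, but not with Ptgds at 0.5% of UMIs or more (adjusted p = 0.0149) or after thinning. Its Ptgds-low values overlapped: 140.3 and 514 CPM in Grin1-null and 41.5, 16.1 and 281 CPM in WT hippocampus.

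Several other calls differed more between replicates than between genotypes. Fos, Egr1, Junb and Hspa1a, of the immediate early and stress list, were at 0, 0, 0 and 21.5 CPM in Ptgds cells of Grin1-null hippocampus replicate 1 and at 128, 75.7, 66.5 and 113 CPM in replicate 2. In WT hippocampus replicate 1 they were at 7.12, 0, 0 and 7.12 CPM, and in the 6 Ptgds cells of replicate 2, outside the test, at 456, 391, 130.4 and 391 CPM. Replicate 2 was thus high in both genotypes. For WT this rests on 6 cells with 15338 UMIs in all, where 1 UMI is 65.2 CPM. With at least 5 cells per sum none of these 4 passed. Of the 12 tested genes of the list 4 passed. Egr1, Junb and Hspa1b had no UMI in the WT library and entered the test only through the Grin1-null libraries, so the signs of the list are not read further. Interneuron and neuron markers moved with these genes: 3 of 11 were tested and none passed, and the sum of the 11 was 53.9 and 214 CPM in Grin1-null hippocampus replicates 1 and 2 against 21.4 CPM in WT replicate 1, led by Sst in the last 2 of these. Gad1, Pvalb and Lhx6 were at 0 in both replicate 1 libraries, and the part of these markers was not tested.

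Mitochondrial ribosomal RNAs were lowest in replicate 1, the version 2 chemistry, in both genotypes. The gene mt-Rnr1 was at 248 CPM in Ptgds cells of Grin1-null hippocampus replicate 1 and 1873 in replicate 2, and at 35.6, 1826 and 779 CPM in WT hippocampus replicates 1, 2 and 3. Within replicate 1 the Grin1-null value of mt-Rnr1 was the higher. The same held for mt-Rnr2, at 603 and 6731 CPM in Grin1-null and 436, 11279 and 2399.6 CPM in WT hippocampus. The genes mt-Atp8, Yam1 and Gm28438 also passed, and mt-Rnr2, mt-Atp8 and Yam1 changed sign when libraries with at least 5 cells were used (log2 changes -0.25, -0.67 and -2.98).

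Xist, the noncoding RNA that coats the inactive X chromosome in females, was the 1 gene lower in Grin1-null. It was at 547 CPM in Ptgds cells of WT hippocampus replicate 1, 0 in replicate 2 and 105 CPM in replicate 3, and at 0 in Grin1-null hippocampus replicates 1 and 2, at least 392-fold lower than in WT hippocampus replicate 1 against a floor of 3 UMIs over the Grin1-null libraries. In Ptgds-low cells it was at 0 and 0.282 CPM in Grin1-null hippocampus and 116 and 0.322 CPM in Grin1-null cortex, 838, 0 and 590.1 CPM in WT hippocampus and 513, 0 and 301 CPM in WT cortex. Xist thus separated libraries and not genotypes alone, and the sex of the mice and genotype cannot be told apart in these calls. With no UMI in Ptgds cells of either Grin1-null hippocampus library, Xist entered that comparison only through WT hippocampus replicate 1. Its direction there was therefore given. No gene of any other list passed between the genotypes, and the median of the 4 tested markers was 0.27.

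In cortex, and between the regions of WT mice, the genes could not be tested as designed, because no WT cortex library had 10 Ptgds cells. With at least 5 cells per sum, 0 of 533 tested genes passed between WT hippocampus and WT cortex in edgeR, with 1 at an unadjusted p under 0.05, and 4 of 2969 passed between Grin1-null and WT cortex, both with an alternative chosen after seeing the data. The Grin1-null arm in cortex was replicate 2 alone, whose variation was not measured, so these 4 calls are not read further. With the gate in percent of UMIs WT cortex replicate 2 was the lone WT cortex library. It stood against Grin1-null cortex replicate 2 alone or against WT hippocampus replicates 1 and 2. The spread between WT cortex libraries was then not measured, so neither comparison is read further.

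The cyclooxygenases, the other prostaglandin D2 synthase and the receptors were at or near 0 in Ptgds cells, while other genes of the pathway were present. Ptgs1 and Ptgs2, the cyclooxygenases that make prostaglandin H2, had no UMI in the 428 Ptgds cells, which allows up to 0.972 CPM of each. Hpgds, the other prostaglandin D2 synthase, had 1 UMI, the receptor Ptger4 1 UMI, and the receptors Ptgdr, Ptgdr2, Ptger1, Ptger2, Ptger3 and Ptgfr none. Genes that act before and after the cyclooxygenases were present: Pla2g16, a phospholipase gene, was at 402 CPM with a UMI in 91.6% of cells, Ptges3 at 172 CPM, the phospholipase gene Pla2g4a at 53.8 CPM, Akr1b3 at 51.2 CPM, Ptgr2 at 43.7 CPM, Cbr1 at 43.1 CPM and Ptges2 at 38.9 CPM. Of the 25 genes on the list 7 were tested against Ptgds-low cells and none passed (median 0.09, with Pla2g16 at 0.37 and an adjusted p of 0.0583).

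Iron handling genes were led by storage. Fth1 and Ftl1, which encode the ferritin chains, were at 20940.1 and 1429 CPM in Ptgds cells, Trf at 2667 CPM and the transferrin receptor gene Tfrc at 56.4 CPM, while Heph and Timd2 had no UMI. Of the 13 genes 7 were tested against Ptgds-low cells, none passed and the median was 0.11, with Fth1 at 0.29 (adjusted p = 0.199). Subunits of the NMDA receptor were at the limit of detection in Ptgds cells: besides 2 UMIs of Grin1 there were 4 of Grin2b, 2 of Grin3a, 1 of Grin2a and 1 of Grin2d, and none of Grin2c or Grin3b. In Ptgds-low cells Grin1 was at 2.76 CPM. None of the 7 genes had enough counts to be tested, so an effect of the floxed allele on Grin1 in these cells was not detectable at this depth.

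Markers of other cells were low in Ptgds cells but not absent. All 11 interneuron and neuron genes had a UMI, 498 UMIs and 161 CPM in sum, led by Sst with 165 UMIs. Their summed level was 315, 36.8 and 128 CPM in WT cortex replicates 1, 2 and 3, 82.1 CPM in Grin1-null cortex replicate 2, 21.4, 130.4 and 84.2 CPM in WT hippocampus and 53.9 and 214 CPM in Grin1-null hippocampus, and 249 of the 428 cells (58.2%) had at least 1 such UMI. The list holds Gad1 and Gad2, which the rule limits to 1 UMI together, so these values are partly set by the rule. Of 8 astrocyte genes 6 had a UMI (149 UMIs, 48.3 CPM, led by Slc1a3), with the defining Aqp4 and Aldh1l1 at 0, and the sum was 48.5, 0 and 0 CPM in WT cortex, 60.5 CPM in Grin1-null cortex replicate 2, 64.1, 65.2 and 0 CPM in WT hippocampus and 53.9 and 44.2 CPM in Grin1-null hippocampus. Of 8 microglial genes 4 had a UMI (41 UMIs), with Cx3cr1, P2ry12, C1qa and Tmem119 at 0. Of 7 endothelial and mural genes only Itm2a had any (3 UMIs), and of 5 glutamatergic genes 3 had 3 UMIs together, with Neurod2 and Neurod6 at 0. Of the 5 choroid plexus genes 3 had 5086 UMIs, 5082 of them Enpp2, which mature oligodendrocytes also express, with Folr1 and Kl at 0. The 7 fibroblast genes had 55 UMIs, 53 of them in the 1 cell of Grin1-null cortex replicate 2, where the sum was 229 CPM, against 0.971 CPM in Grin1-null hippocampus replicate 2 and 0 in the other libraries.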

How the data were processed

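The authors made the deposited UMI counts with Cell Ranger against mm10 with extended gene ends (version 2.1.1 in the processing notes, 3.0.2 in the matrix headers). Each of the 4 matrices (43348 genes) pooled the libraries of 1 region and genotype, and each GEO sample is such a pool. Suspensions were sorted for TdTomato after papain, in buffers with tetrodotoxin, APV and actinomycin-D. Gene coordinates are from GENCODE vM21, which matched 42462 features.

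Counts of a class were added up within each library (sums of under 10 cells left out) and tested with edgeR 4.0.16 (TMM, filterByExpr, quasi-likelihood test, Benjamini-Hochberg adjustment) in R 4.3.3, with the 6 genes of the rule kept in library sizes and out of the tests. Adjusted p-values are edgeR's unless DESeq2 is named. Class comparisons had the library as a block, genotype comparisons none. For shares and levels, group labels of libraries were permuted exactly and p is two-sided. The rest was computed in Python 3.11.15 (scanpy 1.11.5, pandas 2.3.3, scipy 1.17.1, matplotlib 3.10.9, numpy 2.4.6), and the fitting code was tested on simulated data. Intervals and floors cover counting error only.

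No doublet was removed in the main setting. Scrublet, at an expected rate of 0.06, marked 249 of 26201 kept cells, and leaving them out is an alternative. Other alternatives were DESeq2 1.42.0, library-size scaling, an adjusted p of 0.05, no filter on low counts, at least 20 cells per sum, other Ptgds gates, thinning to 2000 UMIs, stricter cell limits, each library left out and the replicate block. At least 5 cells per sum and Enpp6 at 0 were chosen after seeing the data.

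Genes were named by rule: the 5 markers; in each comparison up to 10 rises and 10 falls, largest first, past both thresholds with at least 20 CPM in 1 class or group and the same sign in every pair or no overlap of groups; for each list the members past the thresholds and the 3 most abundant; and Grin1. Some genes that met these rules are not reported here. The members and the 22 lists (246 of 248 entries in the files) were chosen with earlier results of these data known.

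The replicate numbers come from the methods and stand for a preparation, and replicate 1 also for a chemistry. In Mog cells the deviations of libraries from their group means, across 8375 genes, correlated at 0.762, 0.736 and 0.421 between WT hippocampus and WT cortex libraries of the same number, and at -0.68 to 0.0824 between those of different numbers. All 3 pairs exceeded 0.1, so the numbers were taken as pairs between the WT regions. Between genotypes there are 2 numbers a region, too few for this check. The methods draw both genotypes from the same litters without tying litters to numbers. Genes are not independent replicates.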

Additional observations from a re-analysis of the deposited data

How the results depend on the processing

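The share of Ptgds cells was higher in Grin1-null than WT hippocampus under every alternative run, by 7.27 to 19.5 points, and the level of Ptgds in Mog cells by 0.82 to 2.38 on the log2 scale, and no exact permutation p was below 0.1. Leaving out single libraries gave 10.8 to 19.5 points and 0.82 to 2.38. The cortical genotype difference in share was -0.809 points after thinning to 2000 UMIs, -0.635 with Ptgds at 0.5% of UMIs or more and -0.736 with at least 10 UMIs of Ptgds, and single libraries left out gave -1.82 to 3.47 points. The difference in share between WT regions ranged from -1.27 to 3.72 points with single libraries left out. That in level ranged from -0.0567 to 1.55 between WT regions, where it was -0.01 without WT hippocampus replicate 1, and from -0.23 to 0.999 between genotypes in cortex. The cause of these changes was not tested.

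With the replicate number as a block (differences within replicates), the level difference between genotypes in cortex was -0.23 and the share difference 0.0791 points. That share difference is the mean of -3.93 points within replicate 1 and 4.09 within replicate 2. In hippocampus the level and share differences were 0.82 and 13.6 points, and between WT regions 0.72 and 2.0 points. No permutation p with the block was below 0.25. The level between WT regions had that value, which is the smallest its pairs allow. The genotype comparisons, with fewer pairs, could not reach it. Between genotypes, where no label ties a number to a litter, deviations of same-numbered libraries correlated at 0.232 and 0.166 in cortex and 0.340 and 0.349 in hippocampus. With 2 Grin1-null libraries their deviations mirror each other, so these are not separate pairs, and some libraries of unlike number also exceeded 0.1 (0.134 and 0.111). The genotype test of genes in hippocampus could not be fitted with the block, nor without either hippocampal Grin1-null library, and WT hippocampus replicate 1 is its only WT library. Without the block of libraries 4 genes passed against Ptgds-low cells and 0 against Klk6 cells, where the blocked fits gave 205 and 104.

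The 205 genes that passed against Ptgds-low cells became 314 at an adjusted p of 0.05, 63 with DESeq2, 355 with Ptgds at 0.5% of UMIs or more, 77 after thinning and 27 to 317 with single libraries left out, and 139 to 272 under the other alternatives. The 104 against Klk6 cells became 235 at an adjusted p of 0.05, 29 with DESeq2, 220 with no filter on low counts, 181 with at least 5 cells per sum, 49 with Enpp6 at 0, 61 after thinning and 32 to 145 with single libraries left out, and 85 to 112 otherwise. The 13 between genotypes in hippocampus became 21 at an adjusted p of 0.05, 2 with DESeq2, 3 with at least 5 cells per sum, 1 with Ptgds at 0.5% of UMIs or more and 0 of 590 tested after thinning in edgeR (2 at an unadjusted p under 0.05), and 12 to 14 otherwise. Thinning and fewer libraries leave fewer genes to test. In the genotype test the gate in percent and thinning also leave out Grin1-null hippocampus replicate 1 and bring in WT hippocampus replicate 2. Beyond that the cause was not tested.

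Of the genes compared with Ptgds-low cells under each alternative, 53 of 55 kept their sign wherever tested. Mal had a log2 difference of -0.16 after thinning. Trf was at -0.0772 after thinning, at -0.0241 with at least 20 cells per sum, and between -0.0241 and 0.36 with single libraries left out. Of 32 compared with Klk6 cells 31 kept their sign, and Aspa was at 0.0717 after thinning. Calls were lost without a change of sign in 181 and 78 of these values. Against Ptgds-low cells 27 of 53 calls of named genes were lost with DESeq2, 17 of 42 after thinning and 49 of 53 without the block. Against Klk6 cells 13 of 29 were lost with DESeq2, 2 of 15 after thinning and 29 of 29 without the block. With Enpp6 at 0 in both classes 14 of 52 were lost against Ptgds-low cells and 8 of 27 against Klk6 cells. Of the 13 genes called between genotypes 7 kept their sign. With Ptgds at 0.5% of UMIs or more the log2 change was -1.14 for Egr1, -0.73 for Fos, -0.0455 for Hspa1a, -3.68 for Yam1, -1.66 for mt-Atp8 and -0.28 for mt-Rnr2. After thinning it was -1.32 for Egr1, -1.27 for Fos, -3.16 for Yam1 and -1.43 for mt-Atp8. With at least 5 cells per sum it was -2.98 for Yam1, -0.67 for mt-Atp8 and -0.25 for mt-Rnr2. These alternatives bring in WT hippocampus replicate 2. The gate in percent and thinning also leave out Grin1-null hippocampus replicate 1, which then had 7 and 9 Ptgds cells. The cause of the changes was not tested.

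The planned gene comparisons of WT hippocampus with WT cortex and of Grin1-null with WT cortex were not run in the main setting or under DESeq2, other scaling, no filter, adjusted p of 0.05, the replicate block, at least 20 cells, stricter cell limits, Scrublet or leaving out a library, since no WT cortex library had 10 Ptgds cells. At least 20 cells per sum left no test of genotype in hippocampus.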
